A study of Mus musculus with 4 samples.

Results

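The 7 G protein coupled receptors of the oligodendrocyte lineage described here in mouse spinal cord are Gpr37, Gpr37l1, Gpr56, Gpr62, S1pr1, S1pr5 and Lpar1. They were chosen by name, with earlier results of these data known. All 7 of 7 symbols were found among the 22096 gene symbols of the deposited tables. Transcript levels were measured by RNA sequencing of the whole cord, taken on postnatal day 8, in 2 control (Ctrl) and 2 conditional knockout (cKO) libraries on a mixed strain background. Ctrl cords had the genotype Chd7f/+; Olig1-cre and cKO cords the genotype Chd7f/f; Olig1-cre. Both groups therefore carried the Olig1-driven Cre recombinase, and the Ctrl group also carried 1 floxed allele of Chd7, which encodes a chromatin remodeler. Olig1 is a gene of the oligodendrocyte lineage, whereas the RNA came from all cells of the cord. The labels do not say whether the libraries of a group came from separate animals, so the p-values measure only the spread between these libraries. In Ctrl that spread may be technical, while the cKO libraries differed in sex-linked genes, as given below.

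Oligodendrocytes arise from dividing precursors, pass through a newly formed stage and then wrap axons in myelin. The receptors cross the membrane several times and act mostly through heterotrimeric G proteins. S1pr1 and S1pr5 bind sphingosine 1-phosphate and Lpar1 binds lysophosphatidic acid, both of them signalling lipids. S1pr5 and Lpar1 are known from oligodendrocytes, while S1pr1 is widely known as the receptor of endothelial cells and is also made by astrocytes. Gpr37 and Gpr37l1 are related receptors. Gpr37 is known from differentiating and myelinating oligodendrocytes, and Gpr37l1 mainly from astrocytes and precursors. Gpr62 is an orphan receptor of mature oligodendrocytes. Gpr56, now named Adgrg1, is an adhesion receptor with a large extracellular part, is known to keep precursors dividing, and is also made by astrocytes, microglia and neural progenitors.

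Of the receptors, 4 (S1pr5, Lpar1, Gpr62 and Gpr37) fell in the cKO cords, by between 1.90-fold and 2.31-fold. The remaining 3, S1pr1, Gpr37l1 and Gpr56, did not pass the test, and none of the 7 rose. Values are FPKM, fragments per kilobase of transcript scaled to the mapped depth, summed over the transcripts of a gene. Fold changes and their errors are on the log2(FPKM + 1) scale, cKO minus Ctrl, and a gene was said to rise or fall where the Benjamini-Hochberg adjusted p of limma over all 12913 genes tested was below 0.05. Over those genes 6.54% fell and 4.13% rose, against 4 and 0 of the 7 receptors. The choice of receptors was not blind to these data, so the comparisons with all genes are a description only. At an unadjusted p below 0.05 the receptors numbered 4 lower and 0 higher, against 13.8% and 10.4% of all genes tested. The median log2 fold change was -0.93 over the 7 receptors and -0.0028 over all genes tested. Both cKO libraries lay below both Ctrl libraries for 4 of the 7 receptors, and above them for 1, Gpr56. Among all genes tested such a separation occurred downward in 29.3% and upward in 24.3%. In whole-cord RNA, fewer cells of a type and less RNA per cell cannot be told apart.

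**Figure D1:**
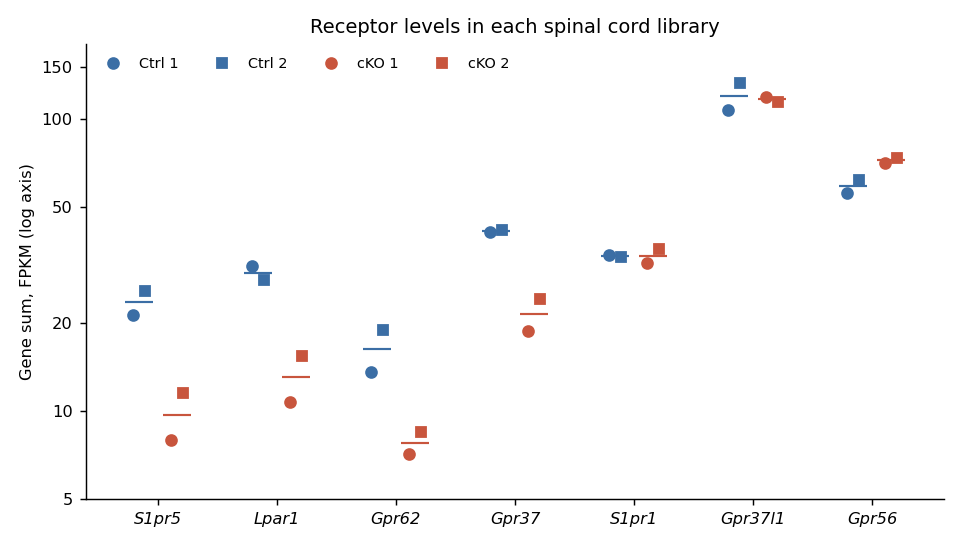
Gene-sum FPKM of each receptor (vertical log axis) in the 2 Ctrl and the 2 cKO libraries, with points for libraries and horizontal lines for group means. S1pr5, Lpar1, Gpr62 and Gpr37 lie lower in both cKO libraries than in both Ctrl libraries, S1pr1 and Gpr37l1 overlap, and Gpr56 lies higher in both cKO libraries.

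The libraries differed in depth and in tissue content. Relative depth ran from 1.0 in Ctrl 2 to 3.19 in cKO 2. Mean read depth per base over the receptors ran from 11.4 for Gpr62 to 261 for Gpr37l1 in their shallowest and deepest library. Chd7 was at 3.52 and 3.12 FPKM in Ctrl, against 2.52 and 3.38 FPKM in cKO, which checks the genotypes little because the floxed part is not named and the Ctrl group is heterozygous. Xist, made from the inactive X chromosome, was at 55.6, 51.8, 19.6 and 0.233 FPKM in Ctrl 1, Ctrl 2, cKO 1 and cKO 2, and the Y-linked gene Ddx3y at 0.144, 0.0720, 0.195 and 11.6 FPKM. Ddx3y thus stood out in cKO 2 alone, where Xist was lowest. The labelled tissue had its defining markers, with myelinating oligodendrocyte, astrocyte and neuron genes all present in each library. Ctrl 1 stood apart in genes of meninges and Schwann cells, as given beside the results below.

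Promoter windows of 250 bases before an annotated start were taken from RefSeq on GRCm38.p6 for 6 of the 7 receptors, while that of S1pr1 was not analysed here. The series names Sox10, a factor that binds SOX core motifs, so the windows were searched on both strands for the letters ACAAAG and ACAATG; no position can match both. Lpar1 has 3 annotated starts there and Gpr56 has 2. At least 1 match was present in 25.2% of 32851 windows of all genes, and in 3 of 9 windows of these receptors. No match was found in the windows of S1pr5, Gpr62, Gpr37 and Gpr37l1, in that of the most upstream start of Lpar1 or in that of the main start of Gpr56. All 250 bases of the Gpr37 window lie within exons of Gpr37 itself in the GENCODE annotation. The bases just after the Gpr62 start were found in no GENCODE transcript of Gpr62. Parts of the Gpr56 windows and of the more upstream Lpar1 windows also lie within their own exons. The upstream Gpr56 start had ACAAAG 80 bases before it, and the second Lpar1 start had CTTTGT, the reverse complement, 28 bases before it. This CTTTGT lies within an exon of Lpar1 itself. The ACAAAG of Gpr56 lies outside the longest stretch of its window that is free of Gpr56 exons. A Lpar1 start farther inside the gene, which belongs to no deposited transcript, had ACAAAG at 153 and CATTGT at 48 bases before it, and 4.1% of all windows held at least 2 matches. A match is a run of letters and not a measured site. Below are the windows of 2 receptors that fell and of 1 that did not pass, all without a match, and that of this internal Lpar1 start with its 2 matches in capitals, each 5′ to 3′ on the strand of the gene. Their GC content was 69.2% for S1pr5 (chr9:21248444-21248693, minus strand, within the antisense model Gm48303), 55.2% for Gpr62 (chr9:106465986-106466235, minus strand), 52.0% for Gpr37l1 (chr1:135167682-135167931, minus strand) and 41.6% for the internal Lpar1 start (chr4:58499404-58499653, minus strand).
S1pr5: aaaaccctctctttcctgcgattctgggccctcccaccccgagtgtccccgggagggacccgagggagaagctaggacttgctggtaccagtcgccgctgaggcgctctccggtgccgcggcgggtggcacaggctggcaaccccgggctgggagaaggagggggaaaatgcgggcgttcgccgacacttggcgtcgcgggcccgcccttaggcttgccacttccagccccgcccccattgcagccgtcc
Gpr62: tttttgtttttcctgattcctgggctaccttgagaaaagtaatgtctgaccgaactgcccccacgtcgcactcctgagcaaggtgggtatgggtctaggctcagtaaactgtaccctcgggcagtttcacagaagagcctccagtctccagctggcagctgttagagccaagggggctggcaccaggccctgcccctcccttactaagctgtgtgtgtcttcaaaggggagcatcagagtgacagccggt
Gpr37l1: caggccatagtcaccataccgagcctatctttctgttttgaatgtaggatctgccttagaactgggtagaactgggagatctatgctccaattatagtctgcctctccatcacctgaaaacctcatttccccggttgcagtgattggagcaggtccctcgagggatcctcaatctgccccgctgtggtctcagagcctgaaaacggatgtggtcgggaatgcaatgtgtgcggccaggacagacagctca
Lpar1: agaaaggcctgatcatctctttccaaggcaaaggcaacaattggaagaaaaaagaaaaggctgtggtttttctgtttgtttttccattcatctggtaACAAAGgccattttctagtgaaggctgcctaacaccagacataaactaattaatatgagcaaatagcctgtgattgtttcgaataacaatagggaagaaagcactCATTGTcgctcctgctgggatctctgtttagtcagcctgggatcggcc

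Among the lysophospholipid receptors, S1pr5 had the lowest log2 fold change of the 7. It was at 21.3 and 25.8 FPKM in Ctrl 1 and 2, compared with 7.95 and 11.5 FPKM in cKO 1 and 2. The groups did not overlap, and cKO 1 was the lowest library. Its mean was 23.5 ± 3.20 FPKM in Ctrl and 9.72 ± 2.50 FPKM in cKO (SD, n = 2 each). The log2 fold change was -1.21 ± 0.16 (SE), which is 2.31-fold lower (limma adjusted p = 1.66e-06). Of all genes tested, 0.457% had a fold change as low or lower. S1pr5 lies on chromosome 9 at 21047361-21052887 on mm9, as a single deposited transcript of 2495 bases.

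Lpar1 was at 31.4 and 28.0 FPKM in Ctrl 1 and 2, against 10.7 and 15.5 FPKM in cKO 1 and 2. Again the groups did not overlap and cKO 1 was lowest. The means were 29.7 ± 2.42 FPKM in Ctrl and 13.1 ± 3.36 FPKM in cKO (SD, n = 2 each). This is 2.21-fold lower, or -1.14 ± 0.16 (SE) as a log2 fold change (limma adjusted p = 4.55e-06). A fold change as low or lower was found in 0.604% of genes. The Lpar1 locus on chromosome 4 (58448124-58566363 on mm9) holds 2 deposited transcripts.

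S1pr1 was at 34.2 and 33.7 FPKM in Ctrl 1 and 2, compared with 32.0 and 35.8 FPKM in cKO 1 and 2. The cKO libraries lay on either side of the Ctrl libraries. Its means were 33.9 ± 0.358 and 33.9 ± 2.67 FPKM (SD, n = 2 each). S1pr1 did not pass, with a log2 fold change of -0.0024 ± 0.16 (SE, limma adjusted p = 0.996), and its 95% interval ran from -0.33 to 0.32. S1pr1 lies on chromosome 3 at 115413351-115417973 on mm9, with a transcript of 3029 bases. The ratio of S1pr5 to S1pr1 was 0.622 and 0.766 in the Ctrl libraries and 0.248 and 0.321 in the cKO libraries, so the ratios did not overlap between groups. The ratio was 2.45-fold lower in cKO (two-sided exact permutation p = 0.333, which is the smallest that 6 arrangements of the libraries allow). It was 1 of 2 ratios between related receptors that were compared.

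In the second of these families, Gpr37 was at 40.8 and 41.7 FPKM in Ctrl 1 and 2, against 18.7 and 24.1 FPKM in cKO 1 and 2. The groups did not overlap, and the Ctrl libraries lay close together. The means were 41.3 ± 0.583 FPKM in Ctrl and 21.4 ± 3.76 FPKM in cKO (SD, n = 2 each). Gpr37 changed by -0.93 ± 0.16 (SE) on the log2 scale, 1.90-fold lower (limma adjusted p = 0.000112). It lies on chromosome 6 at 25618523-25639980 on mm9, with a transcript of 3205 bases.

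Gpr37l1 was the most abundant of the 7, at 107.3 and 132 FPKM in Ctrl 1 and 2, compared with 119 and 114 FPKM in cKO 1 and 2. Both cKO values lay between the Ctrl values. The means were 119.7 ± 17.5 FPKM in Ctrl and 116.6 ± 3.39 FPKM in cKO (SD, n = 2 each). Gpr37l1 did not pass, with a log2 fold change of -0.031 ± 0.19 (SE, limma adjusted p = 0.947) and a 95% interval from -0.42 to 0.36. It lies on chromosome 1 at 137056827-137064258 on mm9, with a transcript of 2253 bases. The ratio of Gpr37 to Gpr37l1 was 0.380 and 0.315 in the Ctrl libraries and 0.158 and 0.211 in the cKO libraries. It did not overlap between groups and was 1.90-fold lower in cKO (two-sided exact permutation p = 0.333, again the smallest possible).

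Gpr62, the least abundant of the 7, was at 13.6 and 19.0 FPKM in Ctrl 1 and 2, against 7.13 and 8.44 FPKM in cKO 1 and 2. The groups did not overlap, although the Ctrl libraries differed more from each other than the cKO libraries did. The means were 16.3 ± 3.80 FPKM in Ctrl and 7.79 ± 0.930 FPKM in cKO (SD, n = 2 each). Its log2 fold change was -0.96 ± 0.16 (SE), 1.95-fold lower (limma adjusted p = 5.07e-05). Gpr62 lies on chromosome 9 at 106366291-106368271 on mm9, with a transcript of 1981 bases. Its end overlaps that of Pcbp4, which encodes an RNA-binding protein, by 52 bases. Pcbp4 was at 80.9, 117.5, 106.4 and 98.2 FPKM in Ctrl 1, Ctrl 2, cKO 1 and cKO 2. Whether the counting used strand is not given in the sources used here, so reads in the shared bases cannot be told apart. In the GENCODE M21 annotation on GRCm38, S1pr5 likewise overlaps the antisense model Gm48303 by 731 bases, and Lpar1 holds the processed pseudogene Gm12577 (574 bases).

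Gpr56 was the 1 receptor with both cKO libraries above both Ctrl libraries. It was at 55.7 and 61.8 FPKM in Ctrl 1 and 2, compared with 70.5 and 73.6 FPKM in cKO 1 and 2. The mean was 58.7 ± 4.34 FPKM in Ctrl and 72.0 ± 2.17 FPKM in cKO (SD, n = 2 each). Gpr56 did not pass, with a log2 fold change of 0.29 ± 0.17 (SE, limma adjusted p = 0.315), and its 95% interval ran from -0.061 to 0.64. A fold change as low or lower was found in 86.9% of genes tested. The gene lies on chromosome 8 at 97501009-97538108 on mm9.

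**Figure D2:**
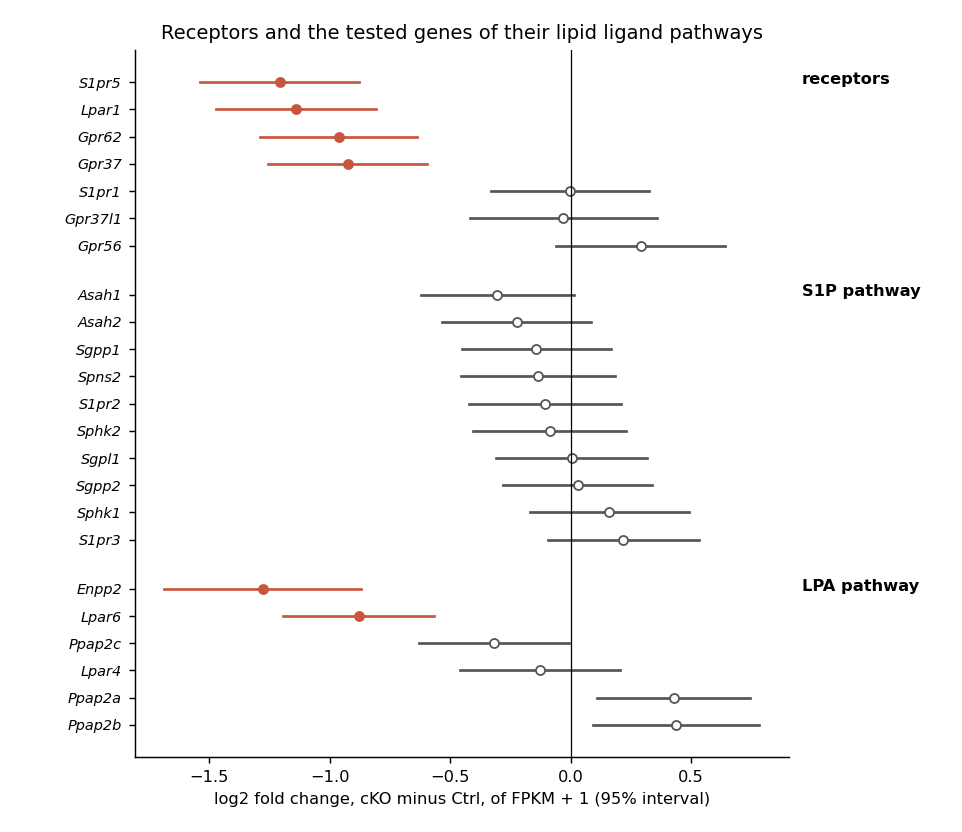
Log2 fold change, cKO minus Ctrl on the log2(FPKM + 1) scale, with 95% intervals from limma, for each receptor and each tested gene of the sphingosine 1-phosphate (S1P) and lysophosphatidic acid (LPA) lists, filled where the adjusted p passed. The intervals of S1pr5, Lpar1, Gpr62 and Gpr37 lie below 0, as do those of the LPA genes Enpp2, Lpar6 and, without passing, Ppap2c. Those of Ppap2a and Ppap2b lie above 0 without passing, and those of S1pr1, Gpr37l1, Gpr56 and the S1P genes include 0.

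FPKM is per length, so levels can be set side by side across genes. In Ctrl the order from high to low was Gpr37l1, Gpr56, Gpr37, S1pr1, Lpar1, S1pr5 and Gpr62. Mean FPKM was 7.35-fold higher for the first than for the last, and no neighbours in that order overlapped in the Ctrl libraries. In cKO, S1pr1 stood above Gpr37, whereas Gpr37 stood above S1pr1 in both Ctrl libraries. At the low end of the cKO order, Lpar1 overlapped with S1pr5 and S1pr5 with Gpr62 across libraries. Within each cKO library, Lpar1 still stood above S1pr5 and S1pr5 above Gpr62. The 4 receptors that fell summed to 107.1 and 114.4 FPKM in Ctrl 1 and 2 and to 44.5 and 59.5 FPKM in cKO 1 and 2. The 3 that did not pass summed to 197.2, 227.6, 221.5 and 223.6 FPKM in the same order. Gpr56 alone made up 18.3% and 18.1% of the summed FPKM of the 7 in Ctrl and 26.5% and 26.0% in cKO, a share that also depends on the falls of the others.

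Lpar1 and Gpr56 were each deposited as 2 transcripts with different starts. Of Lpar1, the transcript with the downstream start was at 21.7 and 12.2 FPKM in Ctrl 1 and 2, against 4.18 and 5.56 FPKM in cKO 1 and 2, which did not overlap. The transcript with the upstream start had 9.68 and 15.8 FPKM in Ctrl but 6.52 and 9.90 FPKM in cKO, so that cKO 2 lay above Ctrl 1. The downstream-start transcript made up 69.2% and 43.5% of Lpar1 in Ctrl and 39.1% and 35.9% in cKO. These starts lie 198 bases apart and the transcripts share reads, so the split is an estimate, and the Ctrl libraries differed widely in it. Of Gpr56, the transcript with the start 7290 bases downstream held nearly all of the signal, at 55.3, 61.8, 70.1 and 72.2 FPKM in Ctrl 1, Ctrl 2, cKO 1 and cKO 2. The upstream-start transcript was at most at 1.31 FPKM, in cKO 2.

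**Figure D3:**
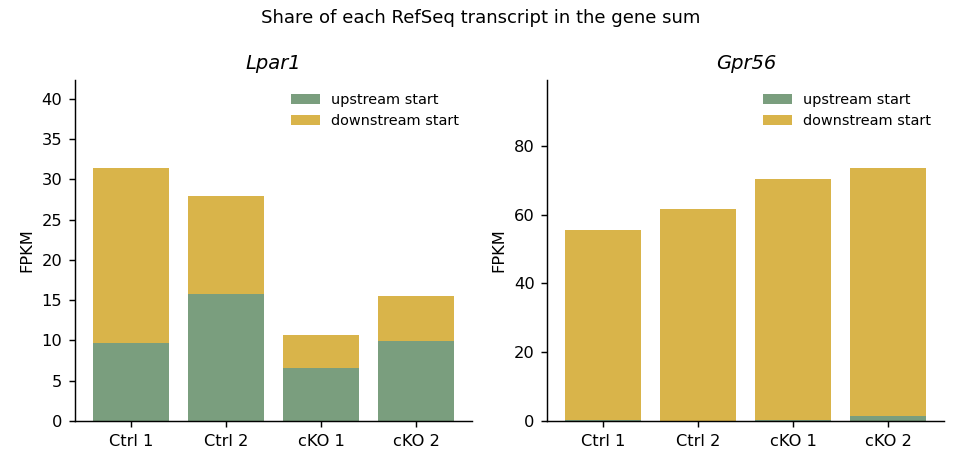
Stacked FPKM of the 2 deposited transcripts of Lpar1 and of Gpr56 (upstream and downstream start) in each library, on linear axes from 0. Lpar1 is split differently between its transcripts in Ctrl 1 than in the other libraries, and Gpr56 is almost entirely in 1 transcript.

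In both cKO libraries the 4 receptors that fell lay below the Ctrl mean, as did the median markers of later oligodendrocyte stages. Relative to the Ctrl mean, S1pr5 was at -1.45 in cKO 1 and -0.97 in cKO 2 on the log2 scale, Lpar1 at -1.39 and -0.90, Gpr37 at -1.10 and -0.75, and Gpr62 at -1.07 and -0.86. Each of the 4 was thus lower in cKO 1 than in cKO 2. The medians of the precursor, astrocyte and Schwann cell markers were also lower in cKO 1. Those of the endothelial, neuron, microglia and meninges markers were not. The median of 8 markers of myelinating oligodendrocytes was at -1.38 and -0.89 in cKO 1 and cKO 2, and that of 6 markers of newly formed oligodendrocytes at -1.27 and -0.82. Against 6.54% of all genes tested, 7 of 8 and 6 of 6 of these markers fell. They summed to 15590 and 17800 FPKM in Ctrl and 6422 and 10040 FPKM in cKO for the myelinating stage, and to 312.4 and 347.3 against 120.3 and 158 FPKM for the newly formed stage. Between the Ctrl libraries, S1pr5, Gpr62 and Gpr37 were lower in Ctrl 1, as both of these marker medians were. Lpar1 was instead higher in Ctrl 1 (0.080, against -0.080 in Ctrl 2). The part of these cell stages in the fall of the receptors was not tested.

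Gpr56, S1pr1 and Gpr37l1 can be set beside the markers of other cells that make them. Of 6 precursor markers, Cacng4 rose and the others did not pass, and the list median was 0.048 in cKO 1 and 0.33 in cKO 2, against 0.26 and 0.32 for Gpr56. The precursor markers summed to 123.7 and 109.7 FPKM in Ctrl and 126.9 and 149.3 FPKM in cKO. Of 7 astrocyte markers, Slc1a3 rose and 6 did not pass (2 were lower and 2 higher at an unadjusted p below 0.05). Their median log2 fold change was -0.20, with 4 negative and 3 positive. They summed to 1421 and 1545 FPKM in Ctrl and 868.6 and 1373 FPKM in cKO. Much of that sum was Gfap, at 758.4 and 938.5 FPKM in Ctrl and 351.1 and 722.7 FPKM in cKO. None of 7 endothelial markers passed (2 were lower at an unadjusted p below 0.05), and they summed to 89.8 and 97.0 FPKM in Ctrl and 96.5 and 70.5 FPKM in cKO. Of 6 microglia markers 3 fell, against 6.54% of all genes tested. The microglia markers summed to 97.3 and 100.5 FPKM in Ctrl and 79.1 and 79.1 FPKM in cKO. The part of these cells in the levels of Gpr56, S1pr1 and Gpr37l1 was not tested.

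Schwann cells of the nerve roots also make Lpar1. Of 6 markers of Schwann cells 4 were tested and 3 fell, and the list summed to 117.4 FPKM in Ctrl 1 against 35.5, 22.5 and 23.7 FPKM in Ctrl 2, cKO 1 and cKO 2. Of 6 markers of meninges and fibroblasts 5 fell, with 232.5 FPKM in Ctrl 1 against 44.1, 23.2 and 27.8 FPKM in the other libraries. Over all genes tested 6.54% fell. Without Ctrl 1, which leaves 1 Ctrl library, the log2 fold change of Lpar1 was -1.06. Those of S1pr5, Gpr62 and Gpr37 were -1.34, -1.19 and -0.94. The Schwann cell markers still differed from cKO in Ctrl 2. Relative to the Ctrl mean, their median was -0.34 in Ctrl 2, and -1.27 and -1.19 in cKO 1 and cKO 2. The part of Schwann cells and meninges in the fall of Lpar1 was not tested.

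**Figure D4:**
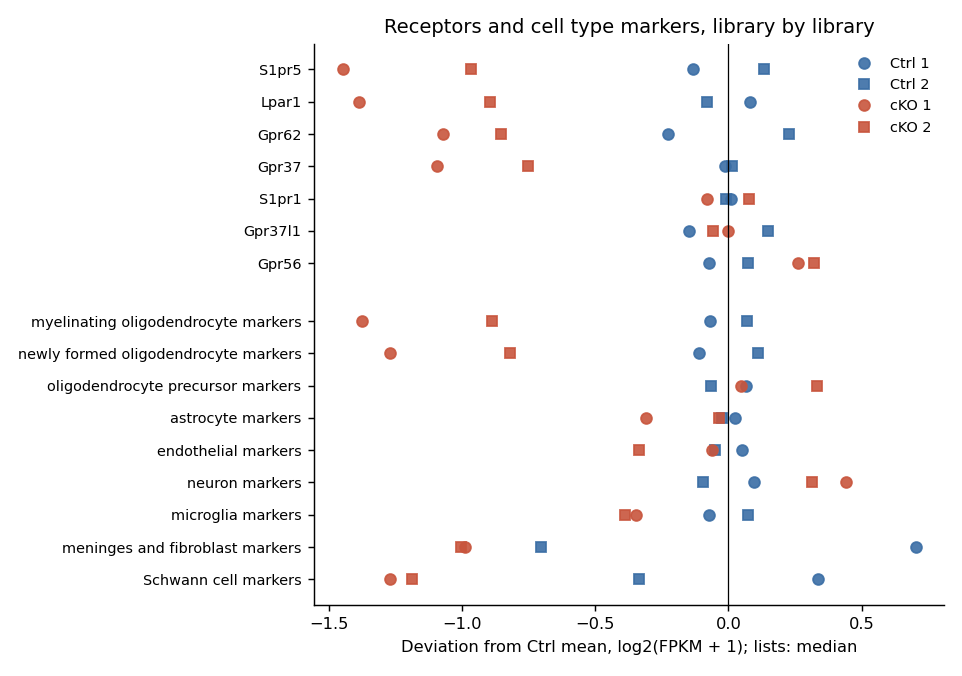
Deviation of each library from the Ctrl mean on the log2(FPKM + 1) scale (horizontal axis), for each receptor and, as the median over its members, for each list of cell type markers. The 4 receptors that fell and both lists of later oligodendrocyte stages lie lowest in cKO 1, and the lists of meninges and Schwann cells separate Ctrl 1 from Ctrl 2.

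The fall of S1pr5, Lpar1, Gpr62 and Gpr37 passed the threshold under each of 3 other scalings. Both cKO libraries lay below both Ctrl libraries for these receptors. Their fold changes therefore had to stay below 0 with any 1 of the 4 libraries left out. Such a fit leaves 1 library in a group, and its prior degrees of freedom in limma were infinite. Its spread is then wholly pooled over genes, so whether a gene passes there cannot show that replicates agree. The prior was also infinite under robust moderation, with the replicate block and with a filter at a mean of at least 5 FPKM. The smallest change was seen without cKO 1 for S1pr5, Lpar1 and Gpr37 (-0.97, -0.90 and -0.75) and without Ctrl 2 for Gpr62 (-0.74). With no filter on low values, or with transcripts under 300 bases included in the sums, none of the 4 passed at the same fold changes (highest adjusted p = 0.291, for Gpr62), while each had an unadjusted p below 0.05, as had 3120 of 21249 and 2487 of 13171 genes. These settings lowered the prior degrees of freedom of limma from 36.3 to 0.858 and 4.15. The SE of S1pr5 went from 0.164 to 0.233 and 0.196, and those of Lpar1 and Gpr62 were also larger. The SE of Gpr37 went from 0.163 to 0.148 and 0.159, and Gpr37 lost its call too (limma adjusted p = 0.268 and 0.0820).

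**Figure D5:**
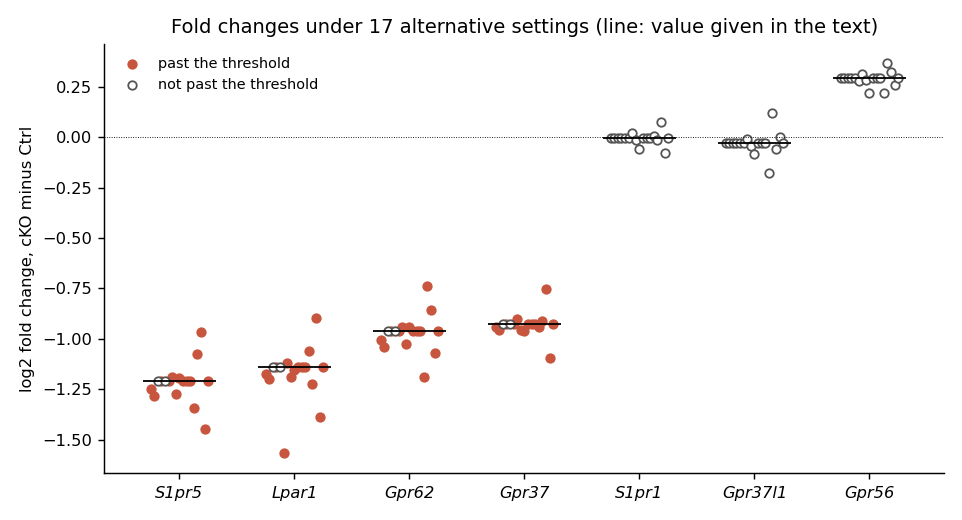
Log2 fold change of each receptor under 17 alternative settings, filled where it passed the threshold and open where it did not, with a line at the value given in the text. S1pr5, Lpar1, Gpr62 and Gpr37 lie below 0 under all 17 and pass under 15, Gpr56 lies above 0 under all 17 and passes under none, and S1pr1 and Gpr37l1 lie on both sides of 0. Where the groups do not overlap, many of the settings could not change the sign.

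The enzyme Enpp2 and the receptor Lpar6 of the lysophosphatidic acid pathway fell, as Lpar1 did. Of 11 listed genes 6 were tested, 2 fell and none rose (3 were lower and 2 higher at an unadjusted p below 0.05), with a median of -0.22. Over all genes tested 6.54% fell and 4.13% rose, and 13.8% were lower and 10.4% higher at that unadjusted p. Enpp2 encodes autotaxin, the enzyme that makes lysophosphatidic acid outside cells and is abundant in oligodendrocytes. It was at 175.9 and 149.6 FPKM in Ctrl 1 and 2, against 52.3 and 84.1 FPKM in cKO 1 and 2, with no overlap, a log2 fold change of -1.28 ± 0.20 (SE, limma adjusted p = 2.23e-05). Lpar6, a further receptor of the same lipid, was at 3.74 and 4.42 FPKM in Ctrl and 1.68 and 1.83 FPKM in cKO and fell by 0.88 on the log2 scale (adjusted p = 9.71e-05). The lipid phosphatases Ppap2a, Ppap2b and Ppap2c, which remove the phosphate of such lipids, did not pass, at 0.43, 0.44 and -0.32 on the log2 scale. Lpar2, Lpar3, Lpar5, Pla1a and Liph were below the filter.

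None of the 10 tested genes of 12 listed for sphingosine 1-phosphate passed in limma, nor had any an unadjusted p below 0.05, and their median was -0.098. Asah1, a ceramidase, was at -0.31, the phosphatase Sgpp1 at -0.14 and the exporter Spns2 at -0.14 on the log2 scale. The related receptors S1pr2 and S1pr3, named here after their values were seen, were below 3 FPKM in every library, with log2 fold changes of -0.11 and 0.22. S1pr4 and Mfsd2b were below the filter.

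Of the 2 listed partners of Gpr37 neither passed in limma, and neither had an unadjusted p below 0.05. Psap encodes prosaposin, a proposed ligand of Gpr37 and Gpr37l1. It was at 494 and 489 FPKM in Ctrl 1 and 2, compared with 514 and 488 FPKM in cKO 1 and 2, a log2 fold change of 0.027. Park2, the ubiquitin ligase parkin that acts on Gpr37, was at -0.055. Of 8 partners of Gpr56, Col3a1 and Cd9 fell, none rose, and the median was -0.14. Over all genes tested, 6.54% fell and 4.13% rose. Col3a1, a collagen that binds Gpr56, was at 17.9 FPKM in Ctrl 1 and at 5.61, 3.98 and 3.83 FPKM in Ctrl 2, cKO 1 and cKO 2. Its log2 fold change of -1.19 was -0.43 without Ctrl 1, when it did not pass, and -1.95 without Ctrl 2, and Ctrl 1 was also the library high in genes of meninges. Cd9, a tetraspanin, went from 144.5 and 145.3 FPKM in Ctrl to 77.8 and 104.6 FPKM in cKO (log2 fold change -0.68, limma adjusted p = 0.0174), and did not pass without cKO 1, without Ctrl 1 or without Ctrl 2. Cd81, Rhoa and Arhgef1 did not pass, at -0.058, -0.31 and 0.084.

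Downstream of the receptors, 26 of 28 listed G protein subunits were tested, of which 2 fell and 4 rose, with a median of 0.12. Over all genes tested, 6.54% fell and 4.13% rose. The gamma subunit gene Gng8 was at 4.00 and 4.88 FPKM in Ctrl and 1.30 and 2.30 FPKM in cKO, a log2 fold change of -0.98 (limma adjusted p = 6.45e-05), and Gng11 was at -0.73. Gnaz, Gng4, Gnal and Gng3 rose by 0.56, 0.58, 0.54 and 0.63 on the log2 scale. The value of Gng3 was 0.37 without cKO 1 and 0.42 without Ctrl 1. Without cKO 1 none of these 4 passed, and without cKO 2 Gng11 did not. The abundant subunits Gnas, Gnb1 and Gnb2 did not pass, at 0.19, 0.17 and 0.12. Of 6 neuron markers, Slc32a1 rose and 5 did not pass. Both cKO libraries lay above both Ctrl libraries for 4 of them, against 24.3% of all genes tested. The other 2 (Snap25 and Slc17a6, named after their values were seen) overlapped. The median of the neuron markers was 0.39, with sums of 788.2 and 758.8 FPKM in Ctrl against 1134 and 934.7 FPKM in cKO. Their part in the rise of the subunits was not tested.

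Of 7 receptor kinases and arrestins, which shut receptors off, none passed in limma, and 0 were lower and 1 higher at an unadjusted p below 0.05, with a median of 0.14. Adrbk1, Arrb1 and Arrb2 had log2 fold changes of 0.17, 0.41 and 0.14. Of 18 RGS proteins, which speed up the switching-off of G proteins, 15 were tested, with a median of 0.12. Rgs16 and Rgs3 fell, with log2 fold changes of -0.75 and -0.54, and neither passed without cKO 1. None of the RGS genes rose, and 2 were lower and 5 higher at an unadjusted p below 0.05. Over all genes tested 6.54% fell and 4.13% rose, and 13.8% were lower and 10.4% higher at that unadjusted p.

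Among 28 tested of 33 listed other receptors of the lineage, 3 fell and 2 rose, against 6.54% and 4.13% of all genes tested. The median of these receptors was 0.054. Gpr17, which marks the newly formed stage, was at 107.5 and 114.3 FPKM in Ctrl and 32.9 and 39.4 FPKM in cKO, and its log2 fold change of -1.60 was lower than that of each of the 7 receptors. P2ry1, a purine receptor, and Cxcr7, a chemokine receptor, were at -0.74 and -0.76. Grm3, a glutamate receptor, and Gabbr2, a GABA receptor subunit, rose by 0.55 and 0.50 on the log2 scale. Without cKO 1, P2ry1, Cxcr7, Grm3 and Gabbr2 did not pass. Gabbr1, Ednrb and Adora1 did not pass, at 0.20, 0.036 and -0.091. Of 24 adhesion receptors related to Gpr56, 16 were tested with a median of 0.17, against 0.29 for Gpr56 itself. Lphn2, a latrophilin, rose by 0.50 (limma adjusted p = 0.0304) and did not pass when any 1 of the 4 libraries was left out. Lphn1, Bai2 and Bai1 did not pass, at 0.29, 0.47 and 0.061. With no filter on low values none of the pathway genes named as fallen or risen passed, and with all transcripts summed Gpr17 did. Of the 7 that rose, each lost its call under between 4 and 10 of the alternatives, and Col3a1, Cd9 and Rgs3 under 7 each.

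For each receptor that fell, the 3 genes with the most similar values were found by the root-mean-square distance between log2 values over the 4 libraries, each centred on its own mean. Nearest to S1pr5 were Mobp, a myelin protein, at a distance of 0.053, Plxnb3, a semaphorin receptor, at 0.067, and Bcas1, a gene of newly formed oligodendrocytes, at 0.067. Nearest to Lpar1 were the transcription factor Zeb2 at 0.035, the esterase Bche at 0.038 and the elongation factor Ell2 at 0.043. Gpr37 was nearest to Lrrc55 at 0.028, the carboxypeptidase Cpm at 0.030 and the ubiquitin ligase G2e3 at 0.033. For Gpr62 they were the kinase Dmpk at 0.038, Insc at 0.043 and the adenylosuccinate synthase Adssl1 at 0.046. Mobp and Bcas1 also stand on the marker lists given above. With 4 libraries in 2 groups these distances are a description only. Among the 4 receptors that fell, Gpr37 and Lpar1 were closest at 0.14, and Gpr62 and Lpar1 were farthest apart at 0.25.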

How the data were processed

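Gene expression was measured in 2 Ctrl and 2 cKO libraries, grouped and numbered by their titles. Per the labels, Trizol was used for extraction and a TruSeq RNA kit for the libraries. The deposited tables give FPKM per RefSeq transcript in the layout of Cufflinks, per the file headers. CASAVA, TopHat, Cufflinks, Cuffdiff and mm9 come from the submitters' processing notes, which name no role or version for them here. Relative depth was taken from the deposited coverage signal, the mean depth over a transcript, since no read totals were used here. Depth sets the precision of low genes, and FPKM gives no counting interval.

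Of 28107 transcripts per table, 315 whose status was not OK in at least 1 library were left out. FPKM was summed per symbol over transcripts of at least 300 bases. Genes with a mean of at least 1 FPKM were tested on log2(FPKM + 1) with limma 3.58.1 in R 4.3.3, with a mean-variance trend and Benjamini-Hochberg adjustment at 0.05. The spread had 36.3 prior and 2 residual degrees of freedom, so it was mostly pooled over genes, with a median SD of 0.156. Transcript starts were raised by 1 to count from 1. The script was tested on simulated data. List symbols matched for 201 of 201, 29 of them by an older symbol or accession. The receptors, lists and the use of gene sums were chosen with earlier results of these data known. Named were all 7 receptors, the 3 nearest genes of each that passed (predicted genes and short RNAs skipped), and in each pathway list up to 6 genes past the threshold and 3 others with the highest mean FPKM. Alternatives were other pseudocounts, filters, transcript summing, scalings and variance models, a replicate block, and leaving out each library. Promoter windows were matched to RefSeq by symbol, and protein sequences were not analysed here.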

Additional observations from a re-analysis of the deposited data

How the results depend on the processing

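Directions of S1pr5, Lpar1, Gpr62 and Gpr37 were kept under all 17 alternatives, but for many of these that was fixed in advance. The filters, variance models and blocks left these fold changes as they were. Other pseudocounts or a library left out cannot turn the sign where the groups do not overlap. The calls of these receptors were kept under 15 of the alternatives. Those 15 include the fits without a library, where a group holds 1 library. With no filter on low values 0 receptors fell (4 lower and 1 higher at an unadjusted p below 0.05), and 0 genes fell and 1 rose over 21249 tested (3120 unadjusted). With all transcripts summed 0 receptors fell (4 lower unadjusted), and 30 genes fell and 23 rose (2487 unadjusted of 13171). Over all genes, 845 fell and 533 rose. With the single most abundant transcript these counts were 408 and 179, under TPM scaling 446 and 241, under quantile scaling 414 and 303, and under median-of-ratios scaling 550 and 418. Leaving out each library gave 277 to 900 that fell and 107 to 555 that rose, the lowest without cKO 1. Receptors that fell numbered 4 each time. The log2 fold change of S1pr1 changed sign under median-of-ratios scaling (0.020) and ranged from -0.080 to 0.076 with a library left out, being positive without Ctrl 1 (0.0081) and without cKO 1 (0.076). That of Gpr37l1 ranged from -0.18 to 0.12, the latter without Ctrl 2. The cause was not tested.

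The labels do not say that replicate numbers pair the libraries, and the deviations of same-numbered libraries correlated at -0.241 across genes. With a replicate block 645 genes fell and 351 rose, and 4 receptors fell. With the crossed pairing, added after the data were seen, 1235 genes fell and 943 rose. The alternatives for named pathway genes were also added after the data were seen. Depth, lowest in Ctrl 2, limits the low genes most.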
